A study of Mus musculus with 5 samples.

Results

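Dendritic epidermal γδ T cells are T lymphocytes that live among the keratinocytes of mouse epidermis. In single-cell RNA libraries of skin they were chosen by their own transcript counts, as barcodes with at least 2 UMIs (unique molecular identifiers, 1 per captured transcript molecule) of the CD3 chain genes Cd3d, Cd3e and Cd3g together, at least 1 UMI of Trdc, at least 1 UMI of Trdv4, and under 1% of UMIs from the suprabasal keratins Krt1 and Krt10. Barcodes first had to hold at least 200 genes and under 20% mitochondrial UMIs. The rule found 877 members among 3778 kept barcodes of the 2 epidermis libraries, and the whole series of 5 skin libraries held 11942 kept barcodes. Of the members, 716 came from the non-lesional epidermis library (K5. Pp6fl/fl genotype) and 161 from the untreated wild-type epidermis library.

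Both groups were C57BL/6 mice of 10 weeks with no treatment, per the labels. Each was 1 library of enzymatically dissociated skin, sorted by FACS to remove dead cells and prepared with the 3′ v3 chemistry of the Chromium system. Pp6 is protein phosphatase 6, whose catalytic subunit is encoded by Ppp6c, and the K5 (keratin 5) promoter is active in basal keratinocytes. How many animals went into each library, and from which body site, the sources used here do not say. With 1 library per group no difference below has a replicate check, no p-value was computed, and intervals are exact 95% intervals that cover counting error only. The genotype, any difference in preparation and any difference between animals cannot be told apart.

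In the mouse these cells arise in the fetal thymus, seed the epidermis before birth and renew there. They carry a nearly invariant receptor built from the Tcrg-V5 and Trdv4 variable segments, extend dendrites between keratinocytes, and release growth factors and chemokines when keratinocytes are stressed or wounded. They are held in the epidermis in part by the integrin chain Itgae, which binds E-cadherin, and they carry natural killer type receptors such as Klrk1 (NKG2D) together with granzymes.

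The libraries held 21640310 UMIs in 2964 barcodes (K5.Pp6 non-lesional) and 3946755 UMIs in 921 barcodes (wild type). They shared 6 barcode sequences, and none of these was a member in both. The members summed to 4020672 UMIs in the K5.Pp6 library and 696633 UMIs in the wild-type library. Values are CPM, the UMIs of a gene scaled to the total UMIs of the members of that library, with no division by gene length, so levels of different genes are not compared.

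The gate did not find the same kind of barcode in both libraries. In the K5.Pp6 library 118 of 716 members were CD3-poor, with CD3 chain genes under 0.2% of their UMIs, against 0 of 161 wild-type members. The CD3-poor members had a median of 12363 UMIs and 5 CD3 UMIs each, against 3826 UMIs and 51 CD3 UMIs in the 598 CD3-rich members of the same library. The 161 wild-type members, all CD3-rich, had a median of 4127 UMIs and 79 CD3 UMIs. Few barcodes lay near the limit: 8 K5.Pp6 members had a CD3 share between 0.1% and 0.2%, 12 lay between 0.2% and 0.4%, and 586 were at 0.4% or more, while 1 wild-type member lay between 0.2% and 0.4% and 160 were at 0.4% or more.

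**Figure D1:**
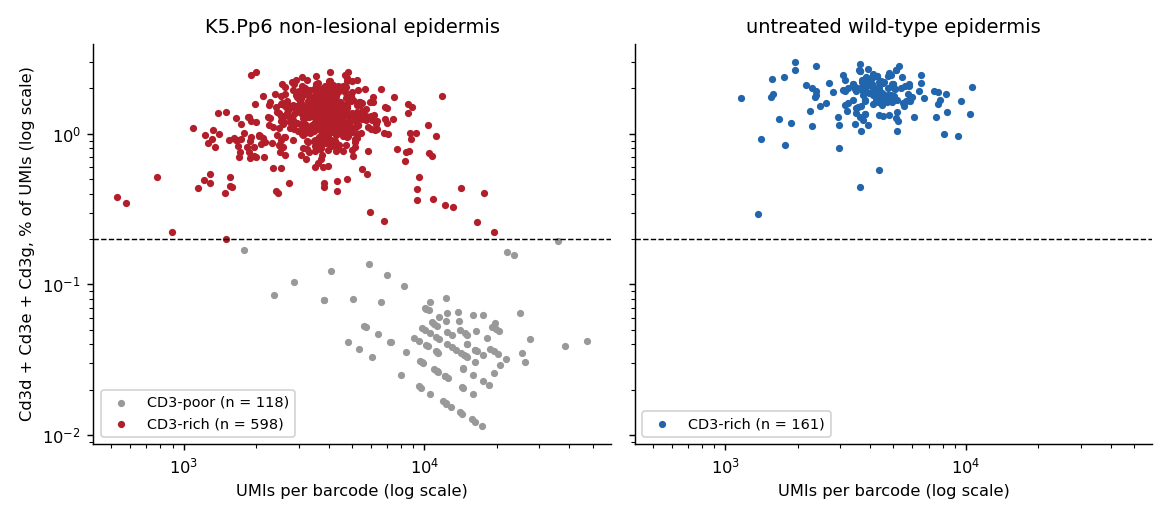
Total UMIs of each member (x axis, log scale) against the share of its UMIs from Cd3d, Cd3e and Cd3g (y axis, log scale), 1 point per barcode, K5.Pp6 non-lesional epidermis on the left and untreated wild-type epidermis on the right. The 118 grey points under the dashed line at 0.2% form a separate cloud of deeper barcodes in the K5.Pp6 library, and no wild-type member lies there.

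Krt5 and Krt14, the basal keratinocyte keratins, made up 1.96% of the UMIs of the CD3-poor members and 0.472% of those of the CD3-rich members, against 0.0996% in wild-type members. Of the 118 CD3-poor members, 63 had at least 2% of UMIs from Krt5, Krt14, Krt1 and Krt10, and 7 had at least 2% from Cd74, H2-Aa, H2-Ab1 and H2-Eb1, the MHC class II genes of Langerhans cells. They held 16.5% of the K5.Pp6 members but 39.9% of their UMIs. Free T cell RNA stood beside this: 83.0% of the 671 keratinocyte barcodes of the K5.Pp6 library had a Trdc UMI and 81.5% had at least 2 CD3 UMIs (median 11962 UMIs), against 16.3% and 9.34% of the 332 keratinocyte barcodes of the wild-type library (median 2002.5 UMIs). Keratinocyte barcodes had under 0.2% CD3 UMIs and at least 2% from those 4 keratins. Their median mitochondrial share was 3.01% (K5.Pp6) and 0.0389% (wild type), with medians of 2933 and 852 genes, so they were unlike between the libraries. Therefore results are given mainly for CD3-rich members, with values over all members and after subtraction from CD3-rich members of a scaled profile of the other barcodes as free RNA (29.5% of UMIs in K5.Pp6, 6.49% in wild type). That profile includes T cells without a Trdv4 UMI, so some T cell RNA was subtracted too. It also took Cd74, a class II gene, to 0 in K5.Pp6 members. What remained was scaled to CPM again, which by itself raised K5.Pp6 levels more than wild-type ones. Whether a call lost after the subtraction reflects free RNA was not tested. The CD3 limit was chosen after the data were seen.

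The marker list summed higher in the CD3-rich members than in the CD3-poor ones, in part by construction. Its genes Trdc, Trdv4 and Cd3e belong to the gate, and Cd3e also counts toward the CD3 limit. All 6 markers, Trdc, Trdv4, Tcrg-C1, Cd3e, Xcl1 and Nkg7, were at 10 CPM or more in each set, but their summed level was 21832 CPM in K5.Pp6 CD3-rich members, 782 CPM in K5.Pp6 CD3-poor members and 27897 CPM in wild-type members. In keratinocyte barcodes the same sum was 556 CPM (K5.Pp6) and 133 CPM (wild type). Xcl1, a marker outside the gate, had 8766 of its 8960 UMIs in K5.Pp6 members in the CD3-rich ones. The CD3-poor members are called by their rule here, not as T cells. Of 12 markers of dermal type 17 γδ T cells, Il17f, Ccr6, Sox13 and 5830411N06Rik were at 0 in K5.Pp6 CD3-rich members, and Il17a, Il17f, Il23r, Ccr6, Sox13, 5830411N06Rik and Blk were at 0 in wild-type members. The 12 summed to 72.4 CPM in K5.Pp6 CD3-rich members and 64.6 CPM in wild-type members, with 2 at 10 CPM or more in each. The αβ T cell list summed to 1754 CPM in K5.Pp6 CD3-rich members and 2208 CPM in wild-type members, nearly all from Trbc1 and Trbc2, while Trac had 90.7 CPM in K5.Pp6 and 136 CPM in wild type and Foxp3 was at 0 in both.

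**Figure D2:**
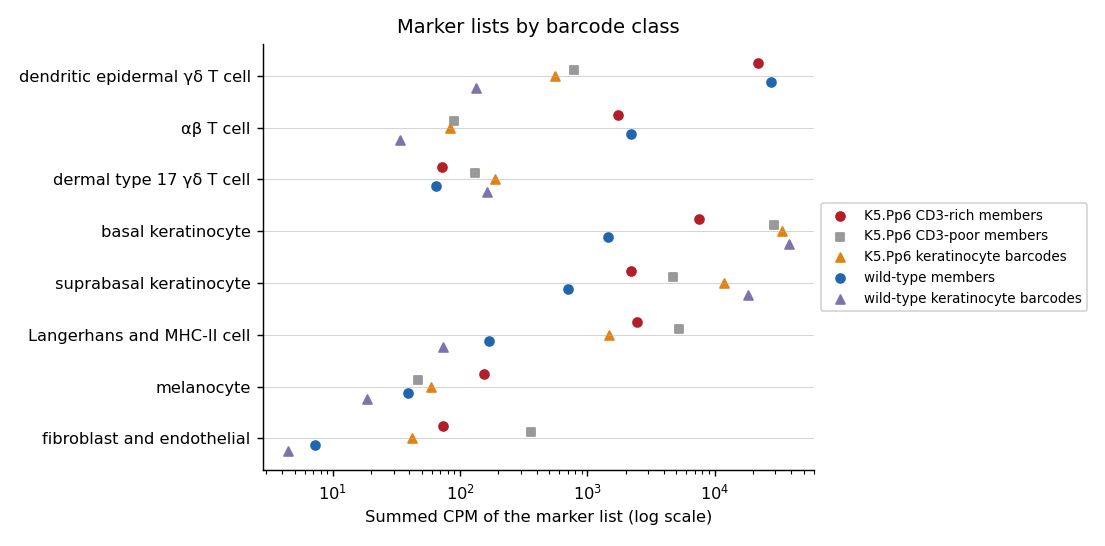
Summed CPM (x axis, log scale) of 8 marker lists (rows) in K5.Pp6 CD3-rich members, K5.Pp6 CD3-poor members, K5.Pp6 keratinocyte barcodes, wild-type members and wild-type keratinocyte barcodes. The CD3-poor members sit beside the keratinocyte barcodes for the dendritic epidermal γδ T cell list (782 against 556 CPM), while CD3-rich members stand at 21832 CPM and wild-type members at 27897 CPM. That list includes the gate genes Trdc, Trdv4 and Cd3e, so part of this gap was set by the rule and the CD3 limit.

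Markers of other cell types differed between the libraries even among CD3-rich members. The basal keratinocyte list summed to 7492 CPM in K5.Pp6 CD3-rich members and 1446 CPM in wild-type members. For the Langerhans and MHC class II list the sums were 2445 CPM in K5.Pp6 CD3-rich members and 168 CPM in wild-type members. Cd74, the invariant chain of MHC class II, had 932 CPM in K5.Pp6 CD3-rich members and 44.5 CPM in wild-type members, with a UMI in 565 of 598 and 28 of 161 barcodes. In the K5.Pp6 library 1 barcode held 18.0% of those Cd74 UMIs. Fibroblast and endothelial markers summed to 73.3 CPM in K5.Pp6 CD3-rich members and 7.18 CPM in wild-type members, with Cdh5 and Vwf at 0 in both. The sums of these 3 lists were thus all higher in K5.Pp6 members. The suprabasal keratinocyte list summed to 2221 CPM in K5.Pp6 CD3-rich members and 705 CPM in wild-type members, and the hair follicle list to 1032 and 365 CPM in that order. Melanocyte markers summed to 154 CPM (K5.Pp6) and 38.8 CPM (wild type), and neutrophil and erythroid markers to 440 CPM (K5.Pp6) and 116 CPM (wild type). Each of these lists was the higher in K5.Pp6 members, and so was the next. The list of natural killer and innate lymphoid cells summed to 290.2 CPM in K5.Pp6 CD3-rich members and 197 CPM in wild-type members, with Ncr1, Eomes and Il1rl1 at 0 in both. Macrophage and mast cell markers summed to 65.4 CPM (K5.Pp6) and 89.0 CPM (wild type), with Cpa3, Mcpt4, Cma1 and Tpsb2 at 0 in both. The part of these cells in the results below was not tested beyond the subtraction.

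Members made up 24.92% (23.35 to 26.55) of the kept K5.Pp6 barcodes and 17.79% (15.35 to 20.44) of the kept wild-type barcodes. CD3-rich members alone made up 20.81% (19.34 to 22.35) of the kept K5.Pp6 barcodes, an interval that overlapped that of wild type, where all members were CD3-rich. Without the Trdv4 requirement alone the shares were 70.7% in K5.Pp6 and 42.4% in wild type. With the CD3 limit added and the Krt1 and Krt10 limit left out, the order was the other way. CD3-rich barcodes with a Trdc UMI were 33.17% (31.45 to 34.93) of the K5.Pp6 library, 953 of 2873, and 41.1% (37.88 to 44.39) of the wild-type library, 372 of 905. Of these, 62.96% (59.8 to 66.03) had a Trdv4 UMI in the K5.Pp6 library and 43.28% (38.18 to 48.49) in the wild-type library. Among the 953 K5.Pp6 barcodes 2 had at least 1% of UMIs from Krt1 and Krt10, and among the 372 wild-type barcodes 0 had. Digestion and sorting set such shares together with the tissue. Barcodes that missed the gate only for want of Trdv4 numbered 1315 in the K5.Pp6 library, of which 353 were CD3-rich, and 223 in the wild-type library, of which 211 were CD3-rich. Just inside that limit, with exactly 1 Trdv4 UMI, were 352 K5.Pp6 members and 104 wild-type members.

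The receptor genes that chose the members are given as a description. Trdc, the δ chain constant gene (chromosome 14, 54142851 to 54148868, GRCm38), had 8937 CPM in K5.Pp6 CD3-rich members and 10239 CPM in wild-type members. Trdv4, the variable segment of the skin type δ chain (chromosome 14, 54074905 to 54075515), had 534 CPM in K5.Pp6 CD3-rich members and 370.4 CPM in wild-type members. Cd3d and Cd3g, subunits of the CD3 complex, had 2419 and 7824 CPM in K5.Pp6 CD3-rich members, against 3122 and 9595 CPM in wild-type members. Cd3e, the third subunit, had 2547 CPM in K5.Pp6 CD3-rich members and 5544 CPM in wild-type members, a wider gap than for Cd3d or Cd3g.

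Genes outside the gate were compared where both libraries together had at least 10 UMIs and 1 library at least 10 CPM. A gene was called higher or lower in K5.Pp6 members when its whole ratio interval was beyond 1.5-fold. Over all members 719 of 8782 genes (8.19%) were higher and 651 (7.41%) lower, 15.6% either way, with a median log2 ratio of all genes of -0.19. With median-of-ratios scaling that median was -0.02 and the split was 901 higher to 395 lower, so list medians are read against the median of all genes. Among CD3-rich members 289 of 8476 genes (3.41%) were higher and 127 (1.5%) lower, 4.91% either way, with a median of -0.09. After the subtraction 97 of 8107 (1.2%) were higher and 106 (1.31%) lower, 2.5% either way, with a median of -0.03. Subtraction over all members gave 220 of 8161 (2.7%) higher and 331 (4.06%) lower, 6.75% either way. Beyond 2-fold, the limit used to name genes, 519 (5.91%) were higher and 179 (2.04%) lower over all members, 168 (1.98%) and 20 (0.236%) among CD3-rich members, and 36 (0.444%) and 44 (0.543%) after the subtraction. Of the 719 higher genes 272 (37.8%) were also called higher among CD3-rich members, and of the 651 lower genes 118 (18.1%) were also called lower. Called under all 3 choices were 48 higher and 48 lower genes.

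Most of the genes named as highest over all members were higher still in keratinocyte barcodes, and none of those named as lowest was. The 12 named highest were Cyr61, Dcn, Ahnak2, Fcgbp, Cytl1, Dst, Cavin3, Cxcl14, Bok, Clca3a2, Cenpf and Capns2, and 11 of them were higher in K5.Pp6 keratinocyte barcodes than in CD3-rich members. Cyr61, a secreted matrix protein gene, had 305 CPM in K5.Pp6 members and 8.61 CPM in wild-type members, and 671 CPM in K5.Pp6 keratinocyte barcodes. All 12 were still called among CD3-rich members, but only Cytl1 and Cenpf after the subtraction. Cytl1, a small secreted protein gene, had 32.1% of its K5.Pp6 CD3-rich UMIs in 1 barcode. The 12 named lowest were Spry2, Gzmb, Timp1, Mest, Ace, Lpcat4, Marf1, Rab4b, Abhd2, Tnfrsf9, Ppp1r16b and Lgals3bp. All 12 were called lower among CD3-rich members, and 8 were after the subtraction.

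Gzmb was called lower under every choice given here, and Gzmc over all members but not among CD3-rich members. Gzmb, which encodes granzyme B, a protease that triggers death of target cells (chromosome 14, 56258838 to 56262260), had 31.9 CPM (25.2 to 39.8) in K5.Pp6 CD3-rich members and 133.5 CPM (107.8 to 163.5) in wild-type members, a ratio of 0.239 (0.174 to 0.326). Over all members the values were 19.4 CPM in K5.Pp6 and 133.5 CPM in wild type, and after the subtraction the ratio was 0.318 (0.231 to 0.436). Its UMIs lay in few barcodes, 35 of 598 in K5.Pp6 and 28 of 161 in wild type, and 1 K5.Pp6 barcode held 20.8% of them. Gzmc, granzyme C of the neighbouring locus, had 206.5 CPM (188.8 to 225.5) in K5.Pp6 CD3-rich members and 232.5 CPM (198.1 to 271.2) in wild-type members, and its ratio of 0.888 (0.742 to 1.07) was not called. Over all members Gzmc had 128.3 CPM in K5.Pp6 and 232.5 CPM in wild type, a ratio of 0.552 that was called lower. Gzmc was unsteady: 1 barcode held 90 of its 162 wild-type UMIs, and over 7 settings of the CD3-rich comparison its ratio lay between 0.502 and 1.74 and was called lower in 1. Of the 35 K5.Pp6 barcodes with Gzmb, 18 also had Gzmc, and of the 28 wild-type barcodes with Gzmb, 14 also had Gzmc.

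The rest of the killing machinery stood closer. Nkg7, a granule membrane protein gene, had 3393 CPM (3319 to 3467) in K5.Pp6 CD3-rich members and 4301 CPM (4148 to 4458) in wild-type members. Prf1, the pore former perforin, had 443.7 CPM in K5.Pp6 CD3-rich members and 528.3 CPM in wild-type members. Klrk1 had 913 CPM (875 to 952) in K5.Pp6 CD3-rich members and 1123 CPM (1045 to 1204) in wild-type members, a ratio of 0.813 (0.749 to 0.883). Klrb1c, the NK1.1 receptor gene, was called higher, with 51.3 CPM (42.7 to 61.2) in K5.Pp6 CD3-rich members and 18.7 CPM (9.94 to 31.9) in wild-type members. Its ratio was 2.75 (1.55 to 5.31), and 3.54 after the subtraction, while that of 1.68 over all members was not called. Of 36 genes of cytotoxic machinery and natural killer type receptors, 14 of 21 measured were lower and 1 higher over all members (median log2 ratio -0.94). Of all genes 7.41% were lower there, 1.5% among CD3-rich members and 1.31% after the subtraction. Among CD3-rich members 1 of 23 was lower and 2 higher (median -0.21, against -0.09 for all genes), and after the subtraction 1 of 22 was lower and 1 higher (median 0.14).

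Of 16 measured chemokine and cytokine genes, 3 were higher and 2 lower among CD3-rich members, where 4.91% of all genes were called either way. Xcl1, the lymphotactin gene that draws cross-presenting dendritic cells, had 3628 CPM (3553 to 3705) in K5.Pp6 CD3-rich members and 3630 CPM (3490 to 3775) in wild-type members, a ratio of 0.999 (0.956 to 1.05). The ratio over all members was 0.614, and it was 1.31 after the subtraction. Tgfb1, a cytokine that keeps lymphocytes in epithelium, was called higher among CD3-rich members, with 171 CPM (155 to 189) in K5.Pp6 and 63.2 CPM (45.9 to 84.8) in wild type, a ratio of 2.71 (1.99 to 3.79), and 3.28 after the subtraction. Over all members its ratio of 2.01 was not called. In keratinocyte barcodes Tgfb1 had 44.0 CPM (K5.Pp6) and 10.4 CPM (wild type). Flt3l and Osm, a dendritic cell growth factor and an interleukin-6 family cytokine, were called lower, with 29.0 and 3.31 CPM in K5.Pp6 CD3-rich members, against 66.0 and 17.2 CPM in wild-type members. Flt3l was called lower in 3 of the 7 settings and Osm in 4, and neither after the subtraction. Ccl5 was called higher, but its 26 K5.Pp6 CD3-rich UMIs lay in 1 barcode and wild-type members had 0. Il17a had 1 UMI in K5.Pp6 members and 0 in wild-type members, and Ifng had 0 in K5.Pp6 members and 1 in wild-type members. Over all members 2 of 15 measured of the 35 listed genes were higher and 5 lower (median log2 ratio -0.65), where 8.19% of all genes were higher and 7.41% lower. The median was -0.06 among CD3-rich members, and after the subtraction 2 of 14 were higher and none lower (median 0.18).

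Repair factors were sparse. Areg, the epidermal growth factor receptor ligand amphiregulin, had 131 CPM in 72 of 598 K5.Pp6 CD3-rich barcodes and 81.8 CPM in 19 of 161 wild-type barcodes, a ratio of 1.6 (1.21 to 2.17) that was not called until the subtraction (2.08, 1.55 to 2.82). Over 7 settings of the CD3-rich comparison its ratio lay between 1.03 and 2.08 and was called in 1. Its UMIs lay in few barcodes, 96.2% of them in 60 K5.Pp6 barcodes and 94.7% in 16 wild-type barcodes. Igf1, a growth factor attributed to these cells, had 2 UMIs in K5.Pp6 CD3-rich members and 0 in wild-type members. Hbegf, Gas6 and Ptn were called higher over all members. In keratinocyte barcodes Hbegf had 82.1 CPM (K5.Pp6) and 78.3 CPM (wild type), and Gas6 had 147 CPM (K5.Pp6) and 178 CPM (wild type). Among CD3-rich members 1 of 8 measured repair genes, Gas6, was higher, where 3.41% of all genes were. Gas6 had 21.9 CPM in K5.Pp6 and 2.87 CPM in wild type, and it was no longer measured after the subtraction.

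The residence integrins were lower in K5.Pp6 CD3-rich members. Itgae had 240.9 CPM (221.7 to 261.3) in K5.Pp6 CD3-rich members and 459 CPM (410.4 to 512.5) in wild-type members, a ratio of 0.524 (0.457 to 0.603). Its partner Itgb7 had 308 CPM (287 to 331) in K5.Pp6 CD3-rich members and 569.9 CPM (515 to 629) in wild-type members, a ratio of 0.541 (0.478 to 0.613). After the subtraction the ratios were 0.685 for Itgae and 0.702 for Itgb7, and neither was called. Klf2, Cd9, Cd63 and Cd81 were called higher among CD3-rich members, where 3.41% of all genes were. None of the 30 listed residence genes, 17 of them measured, was called after the subtraction, while 2.5% of all genes were. With subtraction over all members, Klf2 and Rgs2 were called higher and Cd9 and Epcam lower, so the call of Cd9 was reversed there. Ahr, the aryl hydrocarbon receptor that these cells need to persist, had 166 CPM (150.1 to 183) in K5.Pp6 CD3-rich members and 159 CPM (131 to 192) in wild-type members. Ccr10, a skin homing receptor gene, had 7 UMIs in K5.Pp6 CD3-rich members and 0 in wild-type members.

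The 2 costimulator genes that were called were lower. Tnfrsf9, which encodes the activation receptor 4-1BB, had 646 CPM (614 to 679) in K5.Pp6 CD3-rich members and 1344 CPM (1259 to 1433) in wild-type members, a ratio of 0.481 (0.443 to 0.522). Lgals1, galectin-1, had 910.2 CPM in K5.Pp6 CD3-rich members and 1687 CPM in wild-type members. Both lost their call after the subtraction, at 0.628 and 0.671. They stood among 13 measured of 26 listed costimulator and checkpoint genes, whose median log2 ratio was -0.37 among CD3-rich members and -0.01 after the subtraction. Of all genes 1.5% were lower among CD3-rich members.

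Most antigen receptor chain genes were lower over all members, 5 of 6 measured, against 1 of 7 among CD3-rich members and none after the subtraction. Of all genes 7.41%, 1.5% and 1.31% were lower in that order of settings. Tcrg-C1, the γ chain constant gene (chromosome 13, 19214103 to 19217024), had 2792 CPM in K5.Pp6 CD3-rich members and 3813 CPM in wild-type members, a ratio of 0.732 (0.7 to 0.766), and 0.959 after the subtraction. Tcrg-V5, the variable segment of these cells, had 32.3 CPM in K5.Pp6 CD3-rich members and 18.7 CPM in wild-type members in this 3′ kit, and Tcrg-V6, the segment of many dermal γδ T cells, had 2 UMIs in K5.Pp6 and 1 in wild type. Cd247, the ζ chain of the receptor complex, had 1060 CPM in K5.Pp6 CD3-rich members and 1707 CPM in wild-type members. Its ratio of 0.621 (0.579 to 0.666) was called, as in 2 of the 7 settings, and that of 0.808 after the subtraction was not. Of 36 signalling genes, 12 of 29 measured were lower and 1 higher over all members. Among CD3-rich members 1 of 29, the adaptor gene Sh2d2a, was lower and none higher (median log2 ratio -0.22). After the subtraction none of 28 was called, while 2.5% of all genes were.

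**Figure D3:**
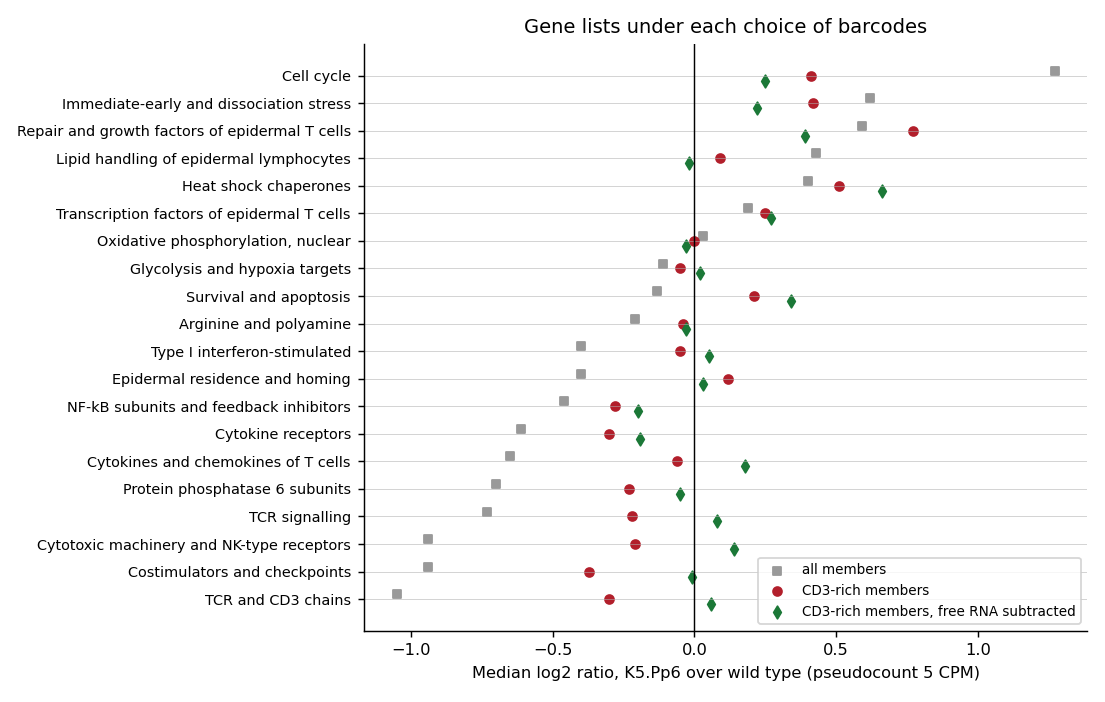
Median log2 ratio of K5.Pp6 over wild type (x axis, pseudocount 5 CPM) for 20 gene lists (rows) over all members, CD3-rich members and CD3-rich members with free RNA subtracted. The cytotoxic list moves from -0.94 over all members to -0.21 and 0.14, and the cell cycle list from 1.27 to 0.41 and 0.25.

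Outside these lists, genes low in K5.Pp6 members included a feedback inhibitor, a protease inhibitor and an imprinted gene. Spry2, which dampens receptor tyrosine kinase signalling (chromosome 14, 105891947 to 105896819), had 69.5 CPM (59.4 to 80.9) in K5.Pp6 CD3-rich members and 277 CPM (239 to 319) in wild-type members, a ratio of 0.251 (0.203 to 0.31), and 0.319 after the subtraction. Timp1, an inhibitor of metalloproteinases on the X chromosome, had 25.3 CPM (19.3 to 32.4) in K5.Pp6 CD3-rich members and 94.7 CPM (73.3 to 120.5) in wild-type members, a ratio of 0.267. The paternally expressed Mest had 38.5 CPM (31.1 to 47.2) in K5.Pp6 CD3-rich members and 122 CPM (97.5 to 150.9) in wild-type members, a ratio of 0.315. Ace, angiotensin-converting enzyme, had 49.7 CPM in K5.Pp6 CD3-rich members and 132 CPM in wild-type members, a ratio of 0.376. Gzmb, Spry2, Timp1, Mest, Ace and Marf1 were called lower in each of 7 settings of the CD3-rich comparison. In keratinocyte barcodes Gzmb, Timp1, Mest and Ace were each under 2 CPM in either library, and Spry2 had 6.17 CPM (K5.Pp6) and 11.9 CPM (wild type). Nme2, a nucleoside diphosphate kinase gene, was also lower in all 7 settings, at 72.4 CPM in K5.Pp6 CD3-rich members and 247 CPM in wild-type members, and it was lower in keratinocyte barcodes too, at 94.9 CPM (K5.Pp6) and 321 CPM (wild type).

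Among CD3-rich members several immediate-early and heat shock genes were higher, and none was called lower. Fos, a subunit of the AP-1 transcription factor, had 1633 CPM (1582 to 1685) in K5.Pp6 CD3-rich members and 772 CPM (708 to 840.4) in wild-type members, a ratio of 2.11 (1.93 to 2.32). Jun, its partner, had 877 CPM in K5.Pp6 CD3-rich members and 303 CPM in wild-type members. Atf3, a stress-induced factor of the same family, had 560.0 CPM (531 to 591) in K5.Pp6 CD3-rich members and 113 CPM (89.8 to 141) in wild-type members, a ratio of 4.94 (3.93 to 6.28) that was 3.48 after the subtraction. Hsp90aa1, an inducible chaperone gene, had 1503 CPM in K5.Pp6 CD3-rich members and 574 CPM in wild-type members. Of 34 immediate-early genes, which are also induced while tissue is dissociated, 8 of 32 measured were higher and none lower among CD3-rich members (median log2 ratio 0.42), against 13 of 33 higher and none lower over all members. After the subtraction Fos, Jun, Atf3 and Gadd45b remained called of 30 (median 0.22). With subtraction over all members, Egr1 and Klf4 of this list and the chaperone gene Hspb1 were called lower. Of 20 chaperone genes, 3 of 20 measured were higher over all members, 4 of 19 among CD3-rich members and 3 of 19 after the subtraction. Beside both lists, 8.19%, 3.41% and 1.2% of all genes were higher in that order of settings.

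Keratinocyte barcodes showed the same direction for these genes. Fos had 2182 CPM in K5.Pp6 keratinocyte barcodes and 1429 CPM in wild-type ones, Atf3 had 1869 and 1444 CPM in that order, and Hsp90aa1 had 657 and 288 CPM. Each of these gaps was narrower than among CD3-rich members. The direction was thus shared with keratinocyte barcodes, but these were themselves unlike between the libraries (median mitochondrial share 3.01% in K5.Pp6, 0.0389% in wild type). What set the difference was not tested. Id3, an inhibitor of E proteins that receptor signals induce in γδ T cells, was called higher among CD3-rich members, with 274 CPM (254 to 296) in K5.Pp6 and 105 CPM (82.1 to 132) in wild type. In keratinocyte barcodes Id3 had 517 CPM (K5.Pp6) and 521 CPM (wild type). Phlda1, a pleckstrin homology domain gene, had 158 CPM (142 to 174) in K5.Pp6 CD3-rich members and 48.8 CPM (33.8 to 68.2) in wild-type members.

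**Figure D4:**
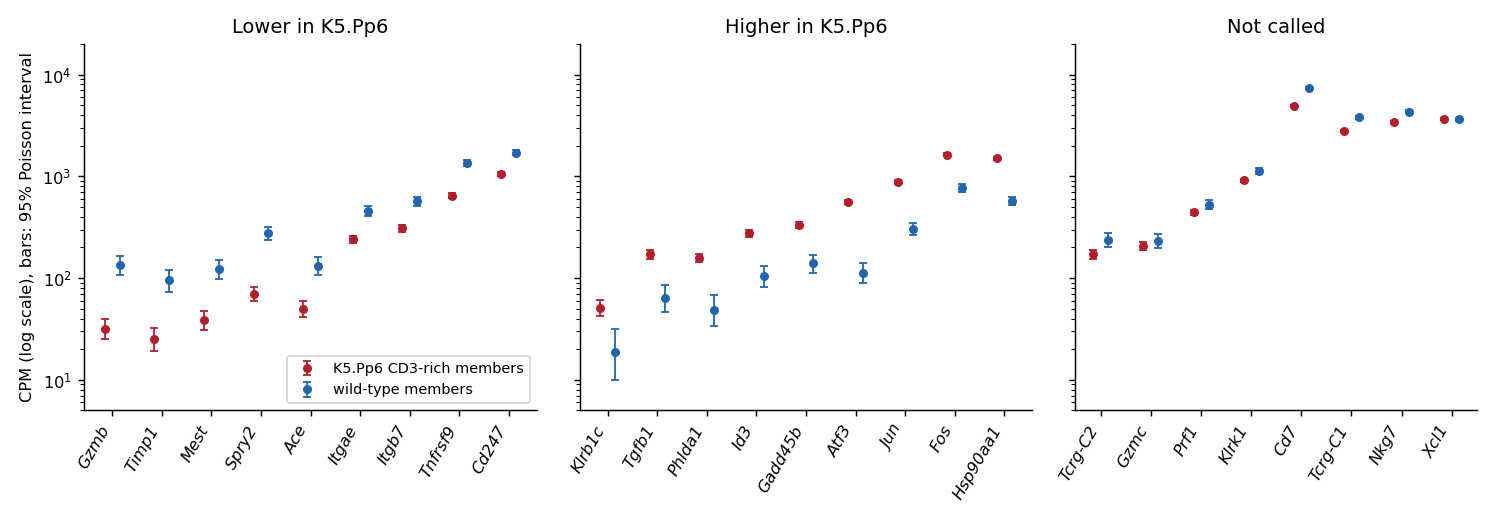
CPM of named genes (y axis, log scale) in K5.Pp6 CD3-rich members and wild-type members, with exact 95% Poisson intervals that cover counting error only, for genes called lower, called higher and not called. Gzmb stands at 31.9 CPM in K5.Pp6 and 133.5 CPM in wild type, Atf3 at 560.0 and 113 CPM in that order, and Xcl1 at 3628 and 3630 CPM.

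The same genes were counted as shares of barcodes thinned to 2000 UMIs each, which left out 48 K5.Pp6 CD3-rich and 12 wild-type barcodes with fewer. Of the keratinocyte barcodes it left out 47 in K5.Pp6 and 166 in wild type. Gzmb was found in 3.27% (1.95 to 5.12) of 550 K5.Pp6 barcodes and 12.8% (7.86 to 19.2) of 149 wild-type barcodes, and in 0 of 624 K5.Pp6 and 0 of 166 wild-type keratinocyte barcodes, which allows shares of up to 0.481% and 1.81%. Spry2 was found in 11.1% (8.59 to 14.0) of the K5.Pp6 barcodes and 33.6% (26.0 to 41.7) of the wild-type barcodes, against 1.76% and 4.22% of keratinocyte barcodes in that order. Tnfrsf9 was found in 55.6% (51.4 to 59.8) of the K5.Pp6 barcodes and 81.9% (74.7 to 87.7) of the wild-type barcodes, against 4.17% and 1.2% of keratinocyte barcodes in that order. Atf3 was found in 62.7% (58.5 to 66.8) of the K5.Pp6 barcodes and 14.8% (9.49 to 21.5) of the wild-type barcodes, but also in 79.5% of K5.Pp6 and 39.8% of wild-type keratinocyte barcodes. Gzmb, Spry2, Tnfrsf9 and Atf3 had already been called in the same barcodes, so these shares are not a separate check. Their intervals cover counting of barcodes within a library only. Xcl1 was found in 89.6% (86.8 to 92.1) of the K5.Pp6 barcodes and 91.9% (86.4 to 95.8) of the wild-type barcodes, against 15.2% and 4.22% of keratinocyte barcodes. Before thinning, 5.85% of K5.Pp6 CD3-rich and 17.4% of wild-type barcodes had a Gzmb UMI, against 0.894% of K5.Pp6 and 0.602% of wild-type keratinocyte barcodes.

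**Figure D5:**
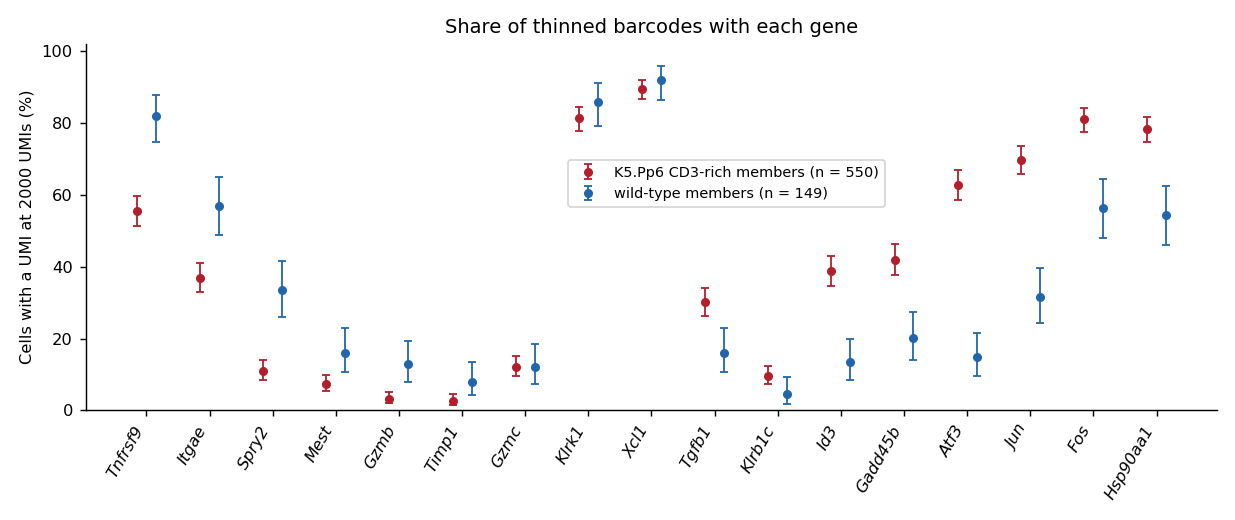
Share of barcodes with at least 1 UMI of each gene after thinning to 2000 UMIs (y axis, percent), for 550 K5.Pp6 CD3-rich members and 149 wild-type members, with exact 95% binomial intervals. Tnfrsf9, Itgae, Spry2 and Gzmb lie lower in K5.Pp6 members, Atf3, Jun and Id3 lie higher, and the intervals of Klrk1 and Xcl1 overlap. Cells of a library are not replicates, and the intervals cover counting error only.

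The directions were the same in barcodes without a Trdv4 UMI. Among 264 K5.Pp6 and 192 wild-type thinned CD3-rich barcodes with Trdc and no Trdv4, Gzmb was found in 2.27% (K5.Pp6) and 15.1% (wild type), Spry2 in 11.7% and 25.5%, and Atf3 in 59.5% and 18.8%, in that order of libraries.

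The members of a library also varied among themselves. By variance over mean at 2000 UMIs, among genes with a mean of at least 0.1 UMIs, Sparc (22.1), Xcl1 (15.5) and Gzmc (14.5) led in K5.Pp6 CD3-rich members, and Hspa1a (11.8), Fth1 (11.3) and Rgs1 (10.9) led in wild-type members, where the median of all such genes was 1.01 in both. Single barcodes stood far above the mean for these genes. In K5.Pp6 CD3-rich members the highest thinned count was 63 for Sparc (mean 0.638), 118 for Xcl1 (mean 7.28) and 36 for Gzmc (mean 0.375). In wild-type members it was 25 for Hspa1a (mean 2.09), 126 for Fth1 (mean 11.4) and 59 for Rgs1 (mean 5.19). How far 1 barcode set each value was not tested. Hspa1a, Rgs1, Rgs2, Hist1h2ap and Malat1 were among the 10 leading genes in both libraries. Rgs1 and Rgs2, regulators of G protein signalling that limit chemokine responses, had 2904 and 3747 CPM in K5.Pp6 CD3-rich members, against 2661 and 3106 CPM in wild-type members. The 60 K5.Pp6 CD3-rich barcodes with the most Xcl1 held 47.0% of its UMIs, and the 16 wild-type barcodes with the most held 36.3%, while for Trdc the figures were 21.6% in K5.Pp6 and 21.3% in wild type. Gzmc was more concentrated, with 89.0% of its UMIs in 60 K5.Pp6 barcodes and 87.0% in 16 wild-type barcodes. The median number of genes at 2000 UMIs was 1096 in K5.Pp6 CD3-rich members and 1110 in wild-type members.

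Few members were cycling. At 2000 UMIs, 16 of 550 K5.Pp6 CD3-rich barcodes (2.91%, 1.67 to 4.68) and 3 of 149 wild-type barcodes (2.01%, 0.417 to 5.77) had at least 3 UMIs over 21 mitosis genes, so a difference was not detectable at this depth. Of 46 cell cycle genes 19 of 40 measured were higher over all members, with none lower. Among CD3-rich members 6 of 34 were higher, and these were Mki67, Top2a, Cenpf, Birc5, Ube2c and Hist1h2ap. After the subtraction 5 of 33 were higher, and these were Mki67, Cenpf, Ube2c, Rrm2 and Hist1h2ap. Of all genes 8.19%, 3.41% and 1.2% were higher in that order of settings. Over 7 settings of the CD3-rich comparison Mki67 was called higher in 5, Top2a in 2 and Hist1h2ap in 6. The Hist1h2ap ratio lay between 1.88, without the highest Scrublet scores, and 25.2, in barcodes with a Y-linked UMI. Mki67, a proliferation marker, had 61 UMIs in 29 of 598 K5.Pp6 CD3-rich barcodes and 3 UMIs in 2 of 161 wild-type barcodes, a ratio of 5.86 (1.91 to 29.2). The largest K5.Pp6 barcode held 14.8% of its UMIs. In keratinocyte barcodes Mki67 had 43.0 CPM (K5.Pp6) and 9.69 CPM (wild type).

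Of the remaining lists, 3 metabolic ones had no gene called among CD3-rich members. None of 43 measured nuclear genes of oxidative phosphorylation was called (median log2 ratio -0.00), nor any of 22 glycolysis and hypoxia genes (-0.05) or 14 arginine and polyamine genes (-0.04). Apart from the phosphatase 6 subunits, the other remaining lists had some genes called higher and none lower, where 3.41% of all genes were higher. Of 13 measured interferon-stimulated genes 2 were higher, Ifi27l2a and Ifitm3, and neither was called after the subtraction. Of 21 genes of the NF-kB subunits and inhibitors, Nfkbiz was higher. Of 37 cytokine receptor genes, Il1r2, Il6ra and Tnfrsf1a were higher and none was after the subtraction. Of 26 transcription factor genes, Id3, Etv3 and Nr4a1 were higher, and Id3 alone was after the subtraction. Of 20 measured lipid genes, Fabp5, Scd1, Plin2 and Apoe were higher, and Fabp5 and Apoe were so after the subtraction too, and Apoe had 2593 CPM in K5.Pp6 CD3-rich members and 415 CPM in wild-type members, with 7669 and 6511 CPM in keratinocyte barcodes of the same libraries. Of 19 survival and apoptosis genes, Phlda1 and Phlda3 were higher.

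Ppp6c, the gene named in the genotype, had 92.7 CPM (81.0 to 105.7) in K5.Pp6 CD3-rich members and 76.1 CPM (56.99 to 99.5) in wild-type members, a ratio of 1.22 (0.9 to 1.68). The K5 promoter is active in basal keratinocytes, while these members were gated by T cell genes. The kit reads the 3′ end, and which exons were removed is unknown here. The Ppp6c level of the members therefore checks nothing about the genotype. None of the 6 measured phosphatase 6 subunit genes was called (median log2 ratio -0.23).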

How the data were processed

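The authors deposited UMI counts (raw counts per gene and barcode, 31053 genes, no normalization) for 5 libraries. The submitters' processing notes name CASAVA, Cell Ranger and the mm10 build, and the file headers give software version 3.0.2. The sources used here do not say how cells were called.

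The 2 epidermis libraries were analysed with Python 3.11.15, numpy 2.4.6, scipy 1.17.1, pandas 2.3.3 and scanpy 1.11.5. Barcodes were filtered and gated as stated in the report, and UMIs were summed over the members of a library and scaled to CPM. Ratios carry exact conditional binomial intervals, CPM exact Poisson intervals and shares exact Clopper-Pearson intervals, all at 95%. Log2 ratios use a pseudocount of 5 CPM. The free RNA profile was the sum of all kept barcodes of the library that were not members, scaled so that all Krt5 and Krt14 UMIs of the members were subtracted. Subtracted values were set to at least 0 and rounded, and their intervals treat them as counts, which leaves out the error of the subtraction. Doublets were not removed in the values reported. An alternative removed a preset number of barcodes with the highest Scrublet scores (70 K5.Pp6 and 7 wild-type barcodes, of them 25 and 2 members, of which 20 and 2 were CD3-rich).

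Genes were named where the interval was beyond 2-fold as a whole, the higher library had at least 50 CPM and no other barcode class of that library exceeded 5 times the members. Genes of the gate, sex-linked markers, predicted genes and those of haemoglobin, ribosomal proteins and mitochondria were left out, and of the others the 12 with the largest and the 12 with the smallest log2 ratios were taken. Beside them stand list members with the largest ratios and highest levels, and Trdc, Trdv4, Tcrg-C1, Cd3e, Xcl1, Nkg7, Ppp6c, Il17a, Ifng, Gzmb, Igf1, Klrk1, Itgae, Ahr, Ccr10, Tcrg-V5 and Tcrg-V6. Other named genes were chosen after their values were seen. The members, the 21 gene lists and the 12 marker lists were chosen with earlier results of these data known. The list of 13 mitochondrially encoded genes was not compared, since the gate used it.

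On simulated counts with 200 changed genes, 87% of 2.5-fold changes were recovered over all members (8446 genes run) and 79% among CD3-rich members (8312 genes run), and 100% of 5-fold changes in each. Of the unchanged genes 13 were called over all members and 5 among CD3-rich members. The simulation drew Poisson counts from a profile shared by both libraries, without clumping among barcodes or a difference in free RNA. How far its rates hold for the real counts was not tested. Gene coordinates are from GENCODE vM21 (GRCm38).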

Additional observations from a re-analysis of the deposited data

Results flagged for a closer look

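The same gate was run on the 3 libraries outside the comparison, and it found barcodes with high Il17a there. In the imiquimod dermis (5 days) 21 barcodes passed and Il17a had 4062 CPM, with a UMI in 10 of them. In the K5.Pp6 lesional whole skin library (18 weeks) 65 barcodes passed and Il17a had 1319 CPM, with a UMI in 27 of them. In the untreated wild-type dermis 17 passed and Il17a had 68.5 CPM, with 6 UMIs in 2 barcodes. The ratio to untreated dermis was 59.3 (27.1 to 162) for imiquimod dermis and 19.2 (8.77 to 52.7) for lesional skin, with intervals that cover counting error only. Xcl1 had 105 CPM in the imiquimod barcodes, 0 UMIs in the lesional ones and 960 CPM in the untreated dermis ones.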

How the results depend on the processing

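Settings on CD3-rich members were chosen after seeing the data. The share of members in K5.Pp6 and wild type was 70.7% and 42.4% without Trdv4, 12.7% and 6.3% with at least 2 Trdv4 UMIs, and 33.1% and 41.1% for CD3-rich barcodes without Trdv4. In K5.Pp6 it was 26.7% with at least 500 genes and under 10% mitochondrial UMIs, 20.8% for CD3-rich members and 20.1% for these without the highest Scrublet scores. Genes called higher and lower numbered 1175 and 1858 without Trdv4, 237 and 112 with at least 2 Trdv4 UMIs, 240 and 153 with thinned UMIs, 220 and 331 with free RNA subtracted, and 901 and 395 with median-of-ratios scaling. Among CD3-rich members they numbered 289 and 127, then 97 and 106 with free RNA subtracted, 240 and 104 without the highest Scrublet scores, 393 and 158 without Trdv4, 320 and 95 with median-of-ratios scaling, 129 and 84 thinned, and 212 and 96 in barcodes with a Y-linked UMI. By the mean of per-cell CPM, 633 genes were lower beyond 2-fold, against 1090 by summed UMIs. Both counts use the point ratio alone, without the interval required elsewhere. With free RNA subtracted, median log2 ratios turned positive over all and CD3-rich members for TCR and CD3 chains (0.21 and 0.06), TCR signalling (0.25 and 0.08), the cytotoxic list (0.31 and 0.14) and cytokines (0.29 and 0.18). The cytokine list also turned to 0.07 with no filter, 0.11 thinned and 0.05 in Y-positive CD3-rich barcodes. Log2 ratios turned positive with the subtraction for Klrk1 (0.28 and 0.09), Nkg7 (0.22 and 0.04), Tcrg-C1 (0.13, all members) and Xcl1 (0.59 and 0.39). Xcl1 also turned to 0.06 without the highest Scrublet scores and with median-of-ratios scaling, 0.13 without Trdv4, 0.08 thinned and 0.12 in Y-positive barcodes, all among CD3-rich members. The subtraction took a larger part of the K5.Pp6 UMIs, so the new scaling alone raised ratios of K5.Pp6 over wild type. Why values moved otherwise was not tested beyond these settings. No paired analysis was possible because each group has 1 library, and no library could be left out. Members with Xist alone (1 in K5.Pp6, 0 in wild type) were too few to compare.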

Other observations

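Genes that passed under all 3 choices of barcodes included several whose UMIs lay in very few K5.Pp6 CD3-rich barcodes. Wif1, a secreted Wnt inhibitor, had 56.7 CPM in 15 of 598 K5.Pp6 barcodes and 1.43 CPM in 1 of 161 wild-type barcodes, and 68.6% of the K5.Pp6 UMIs lay in 1 barcode. In Msmp that share was 82.9%, in Mgp 63.6% and in Col8a1 51.7%. Hist1h2ap, a histone gene, was in 185 of 598 K5.Pp6 barcodes and 15 of 161 wild-type barcodes, at 289 CPM in K5.Pp6 and 105 CPM in wild type, where 1 barcode held 56 of its 73 UMIs.

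Actb, cytoplasmic actin, had 2180 CPM in K5.Pp6 CD3-rich members and 3877 CPM in wild-type members, and 1790 CPM in K5.Pp6 and 2451 CPM in wild-type keratinocyte barcodes. Akt1, a kinase downstream of growth factor receptors, had 50.5 CPM in K5.Pp6 CD3-rich members and 125 CPM in wild-type members, with 50.3 and 58.2 CPM in keratinocyte barcodes.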
